A study of Mus musculus with 12 samples.

Results

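Fatty acid oxidation and ketone body production were described through 32 genes, listed by name for their place in these pathways, with earlier results of these data known. Each was read from a probe set that names this gene alone, and where a gene had several, the one with the highest mean over the 6 arrays of a tissue stood for it in that tissue. Of the 32 genes, 27 had such a probe set among 17097 genes measured in all. Acsl1, Hadha, Etfb, Bdh1 and Ppargc1a had none, Etfb and Ppargc1a being read only by probe sets shared between genes, and are not reported. Since Bdh1 was the ketone body enzyme of the list, ketone production was covered by the wider gene lists alone.

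The study asked how maternal loss of Abcb11, the bile salt export pump of the liver, affects the offspring. Livers came from 3 female Abcb11-/- mice and 3 female wild-type (WT) mice, all C57BL/6 and 1.5 months old. Lungs came from Abcb11+/- offspring on the same background, collected at embryonic day 17.5 (E17.5), embryonic day 18.5 (E18.5) and on the day of birth (PN0). The pups had either an Abcb11-/- mother mated with a WT male or a WT mother mated with an Abcb11-/- male, so that every pup carried 1 disrupted copy, and there was 1 lung array for each stage and mother. A figure legend of the study gives 3 animals per group at E18.5 and PN0, but whether a lung array holds RNA of 1 animal or of several is not stated, and the mothers also differ in the genotype of the mate. The knockout is constitutive, so it is not limited to liver in the Abcb11-/- mice. All values are log2 signals of Affymetrix arrays, and a log2 difference of 1 is a 2-fold difference in signal.

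The liver arrays matched their genotype labels and the lung arrays their tissue, while the stage and mother of the lung arrays were not checked this way. Abcb11 was at 2.90, 3.14 and 3.26 in Abcb11-/- livers, against 11.22, 11.04 and 10.88 in WT livers. Albumin (Alb) averaged 13.83 in both kinds of liver, and none of 14 hepatocyte markers was called between them. Sftpc, the defining gene of type II pneumocytes, was between 13.23 and 13.39 on all 6 lung arrays. The E17.5 lung array of the Abcb11-/- mother stood apart. On it the summed hepatocyte markers were at 14.31, against 10.22 with a WT mother, and the summed skeletal muscle markers at 12.27, against 7.72. In whole tissue, fewer cells of a type and less RNA per cell cannot be told apart.

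Long-chain fatty acids are activated to acyl-CoA and cross the inner mitochondrial membrane as carnitine esters, the step that limits the rate of oxidation. In the matrix each turn of the cycle removes a short acetyl-CoA unit through a dehydrogenase, a hydratase, a second dehydrogenase and a thiolase, and in the fasting liver much of that acetyl-CoA becomes ketone bodies. Peroxisomes run a related cycle on very long chains and shorten the side chain of bile acid precursors. PPAR alpha (Ppara), a fatty acid receptor that binds DNA with RXR alpha (Rxra), switches on many of these genes in liver, and a milk diet after birth is known as a strong stimulus for them.

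PPAR alpha and RXR alpha are known to bind paired copies of a short site related to AGGTCA. The RefSeq promoter windows (GRCm38.p6, 250 bases before to 50 after the start of the gene) were read for 26 of the 32 genes, in 28 windows. Those of Pdk4, Cpt1a and Slc25a20 are shown because these genes were 2-fold or more higher at PN0 than at E18.5 in lungs of pups with a WT mother, as was Angptl4, which had no window, and because Pdk4 and Cpt1a were called in the liver. They lie at chr6:5496229-5496528 on the minus strand for Pdk4, at chr19:3323051-3323350 on the plus strand for Cpt1a and at chr9:108661886-108662185 on the plus strand for Slc25a20. Capitals mark AGGNCA, a looser spelling of the same site in which N is any base, on either strand.
Pdk4: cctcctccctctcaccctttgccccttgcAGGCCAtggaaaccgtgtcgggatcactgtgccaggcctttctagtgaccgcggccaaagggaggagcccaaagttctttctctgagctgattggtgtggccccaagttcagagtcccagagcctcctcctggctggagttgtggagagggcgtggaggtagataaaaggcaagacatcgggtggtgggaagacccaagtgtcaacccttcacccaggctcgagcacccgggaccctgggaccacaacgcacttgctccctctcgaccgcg
Cpt1a: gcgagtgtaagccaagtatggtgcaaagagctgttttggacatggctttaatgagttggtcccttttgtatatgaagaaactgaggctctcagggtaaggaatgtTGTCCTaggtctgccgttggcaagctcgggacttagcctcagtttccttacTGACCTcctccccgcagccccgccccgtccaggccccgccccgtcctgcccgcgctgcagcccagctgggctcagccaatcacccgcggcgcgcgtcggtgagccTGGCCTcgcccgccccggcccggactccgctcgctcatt
Slc25a20: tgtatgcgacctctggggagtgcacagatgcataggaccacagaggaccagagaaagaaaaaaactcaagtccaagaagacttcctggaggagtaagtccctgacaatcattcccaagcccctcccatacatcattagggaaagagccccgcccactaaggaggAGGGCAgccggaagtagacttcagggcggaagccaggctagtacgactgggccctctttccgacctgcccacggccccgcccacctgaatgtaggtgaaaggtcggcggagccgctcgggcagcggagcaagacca
The window of Cpt1a held 3 such matches, of which 1 was AGGTCA itself, read on the opposite strand. Those of Pdk4 and Slc25a20 held 1 each. AGGTCA was in 3 of the 28 windows (10.7%), those of Acadm, Acadvl and Cpt1a, against 16.3% of 32851 mouse promoter windows. AGGNCA was in 22 of the 28 (78.6%), against 57.2% of all windows, and this count includes windows on which the arrays gave no value, such as those of Acsl1 and Hadha. The full paired element, 2 copies in the same direction with 1 base between them, was in 0 of the 28 windows with either spelling, against 0.0396% of all windows for AGGTCA and 0.381% for AGGNCA. A match of letters is not a binding site, and elements of these genes can lie outside the window.

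In the liver most enzymes of the cycle differed little between the genotypes, while Cpt1a and Eci2 were called lower, Crat lay higher just outside the threshold, and the regulators around it differed in both directions. Tested over all genes with limma (adjusted p under 0.05, Benjamini-Hochberg), 1 of the 27 members was higher in Abcb11-/- livers (3.7%, against 4.33% of all genes) and 4 were lower (14.8%, against 2.91% of all genes). Pdk4 rose. Eci2, Angptl4, Cpt1a and Pex11a fell. The median log2 fold change was -0.09 over the members and 0.00 over all genes, and 18 of the 27 members were below 0. Bright genes were called more often. Among the 6375 genes averaging 6 or more on the log2 scale, which were tested alone, 9.43% were called higher and 8.67% lower, and of the 23 members among them 2 (Crat and Ehhadh) were called higher and 4 lower. Pdk4, which averaged 5.92, was not among them.

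**Figure D1:**
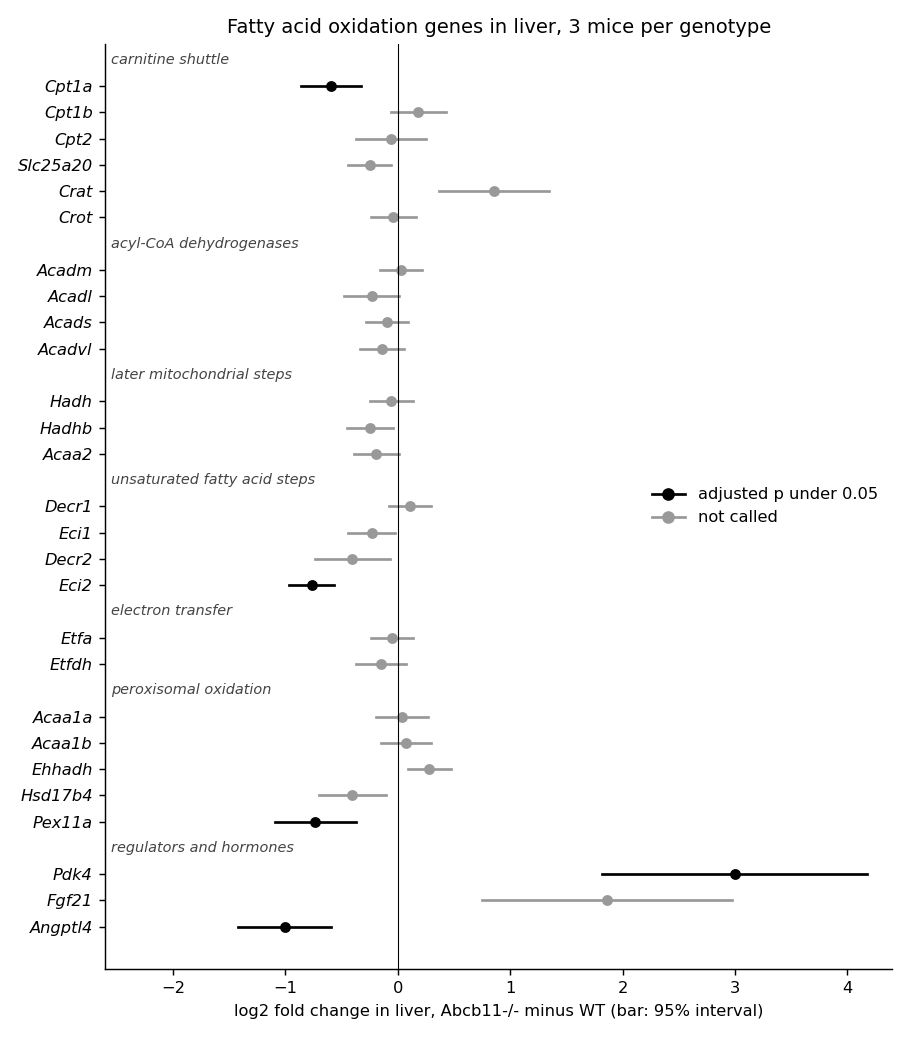
Log2 fold change of each measured member in the liver, Abcb11-/- minus WT (x axis, 3 mice per genotype), with its 95% interval as a bar and the members grouped by role down the page. Black marks the 5 members called by limma, Pdk4 to the right of 0 and Cpt1a, Eci2, Pex11a and Angptl4 to the left, and most of the grey enzymes lie within 0.4 of 0.

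Of the carnitine shuttle, Cpt1a, the liver form of the carnitine palmitoyltransferase that controls entry of fatty acids into mitochondria, was at 10.57, 10.43 and 10.69 in Abcb11-/- livers, against 11.33, 11.04 and 11.09 in WT livers. The genotypes did not overlap, with a log2 fold change of -0.59 ± 0.11 (SE, adjusted p = 0.023 from limma). This call rests on all 3 WT livers, since the adjusted p was between 0.0621 and 0.0756 when any one of them was left out. Slc25a20, the translocase that exchanges acylcarnitine for carnitine across the inner membrane, was at 10.83, 10.78 and 10.72 in Abcb11-/- livers, against 11.04, 11.05 and 10.99 in WT livers. All 3 Abcb11-/- values lay below the WT values, yet the difference of -0.25 ± 0.08 did not pass the test (SE, adjusted p = 0.119 from limma).

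Crat, the carnitine acetyltransferase that buffers short acyl groups, ran the other way from Cpt1a. It was at 6.99, 7.10 and 7.09 in Abcb11-/- livers, against 6.34, 6.58 and 5.69 in WT livers. The log2 fold change of 0.86 ± 0.21 lay just outside the threshold (SE, adjusted p = 0.0524 from limma). Without WT replicate 2 or 3 it was just inside, at adjusted p = 0.0495 and 0.0496. Cpt2, the carnitine acyltransferase of the inner membrane, averaged 10.45 ± 0.18 in Abcb11-/- livers and 10.51 ± 0.19 in WT livers (SD, n = 3 each). Cpt1b, the muscle form, and Crot, the peroxisomal carnitine octanoyltransferase, were between 2.98 and 3.59 on all liver arrays, near the array medians of 3.15 to 3.18, so little can be read from them.

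None of the 4 acyl-CoA dehydrogenases, which open each turn of the cycle for chains of different length, was called. Acadm, for medium chains, was at 12.03, 12.03 and 12.02 in Abcb11-/- livers, against 12.04, 12.03 and 11.93 in WT livers, a difference of 0.03 with a 95% interval of -0.16 to 0.22. The log2 fold changes of Acadvl, Acadl and Acads were -0.14, -0.23 and -0.09. In each of these 3 genes every Abcb11-/- value lay below every WT value, but by little. Hadh (-0.06), Hadhb (-0.25) and Acaa2 (-0.19), which carry out the later steps, were not called either. Hadhb, the thiolase subunit of the trifunctional protein, was at 11.12, 10.99 and 11.08 in Abcb11-/- livers, against 11.40, 11.29 and 11.25 in WT livers. Etfa and Etfdh, which pass electrons from the dehydrogenases to the respiratory chain, overlapped between the genotypes, with log2 fold changes of -0.05 and -0.15.

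The auxiliary enzymes for unsaturated fatty acids held the most stable call. Eci2, an enoyl-CoA isomerase that moves double bonds into the position the cycle can use, was at 10.16, 10.21 and 10.07 in Abcb11-/- livers, against 10.97, 10.92 and 10.85 in WT livers. Values of one genotype lay close together, and the gap between genotypes was several times wider. This made a log2 fold change of -0.77 ± 0.09, a 1.70-fold lower signal (SE, adjusted p = 0.00313 from limma). It was called in each of 12 alternative limma fits. Its mitochondrial relative Eci1 was at -0.23 ± 0.09 (SE, adjusted p = 0.189 from limma). Decr2, the peroxisomal dienoyl-CoA reductase, was at 8.87, 9.20 and 9.32 in Abcb11-/- livers, against 9.57, 9.35 and 9.68 in WT livers, which did not pass the test (adjusted p = 0.151 from limma). The mitochondrial reductase Decr1 was at 0.11, in the other direction and also not called.

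In the peroxisomal group Pex11a fell while the enzymes split. Pex11a, a membrane protein that drives division of peroxisomes, was at 8.29, 8.18 and 8.47 in Abcb11-/- livers, against 9.27, 9.14 and 8.73 in WT livers. The log2 fold change was -0.73 ± 0.15 (SE, adjusted p = 0.031 from limma), and a second probe set of the gene gave -0.84. The call was the least firm of the 5, since the adjusted p was between 0.0209 and 0.126 with 1 array left out and above 0.05 in every such fit except that without WT replicate 3. Ehhadh and Hsd17b4 are the paired bifunctional enzymes of the peroxisome, and Hsd17b4 is the one that also shortens the side chain of bile acid precursors. Ehhadh was at 11.75, 11.75 and 11.84 in Abcb11-/- livers, against 11.51, 11.54 and 11.45 in WT livers. Its difference of 0.28 did not pass the test (adjusted p = 0.0886 from limma). Hsd17b4 was at 10.61, 11.03 and 10.75 in Abcb11-/- livers, against 11.34, 11.12 and 11.14 in WT livers, a difference of -0.40 (adjusted p = 0.113 from limma), and without replicate 2 of the Abcb11-/- livers it was called (-0.52, adjusted p = 0.0381). Neither gene overlapped between the genotypes. The near-identical thiolases Acaa1a (0.04) and Acaa1b (0.07) overlapped, and their probe sets may read both genes.

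The widest differences were in the regulators. Pdk4, a kinase that shuts pyruvate dehydrogenase and so spares glucose while fat is burnt, was at 6.89, 7.03 and 8.33 in Abcb11-/- livers, against 5.44, 3.90 and 3.92 in WT livers. Even the lowest Abcb11-/- liver was 1 log2 unit or more above the highest WT liver. The difference was 3.00 ± 0.51 on the log2 scale, a 7.98-fold higher signal (SE, adjusted p = 0.0143 from limma). The WT values of 3.90 and 3.92 lay not far above the liver array medians of 3.15 to 3.18, so the size of this fold is uncertain. The adjusted p was 0.0673 without WT replicate 2 and 0.0664 without WT replicate 3, the 2 WT livers with the lowest values.

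Fgf21, a hormone that the liver releases in fasting and under cell stress, was at 6.81, 4.77 and 6.56 in Abcb11-/- livers, against 4.16, 4.33 and 4.07 in WT livers. In replicate 2 of the Abcb11-/- livers it was barely above WT. The log2 fold change of 1.86 ± 0.48 missed the threshold (SE, adjusted p = 0.0609 from limma), and without that liver it was 2.50 (adjusted p = 0.000241). Angptl4, a secreted inhibitor of lipoprotein lipase, moved against Pdk4. It was at 9.01, 8.58 and 9.08 in Abcb11-/- livers, against 10.20, 9.73 and 9.76 in WT livers. The log2 fold change was -1.01 ± 0.18, a 2.01-fold lower signal (SE, adjusted p = 0.016 from limma). The adjusted p was 0.0526 without WT replicate 1 and 0.0515 without WT replicate 3.

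**Figure D2:**
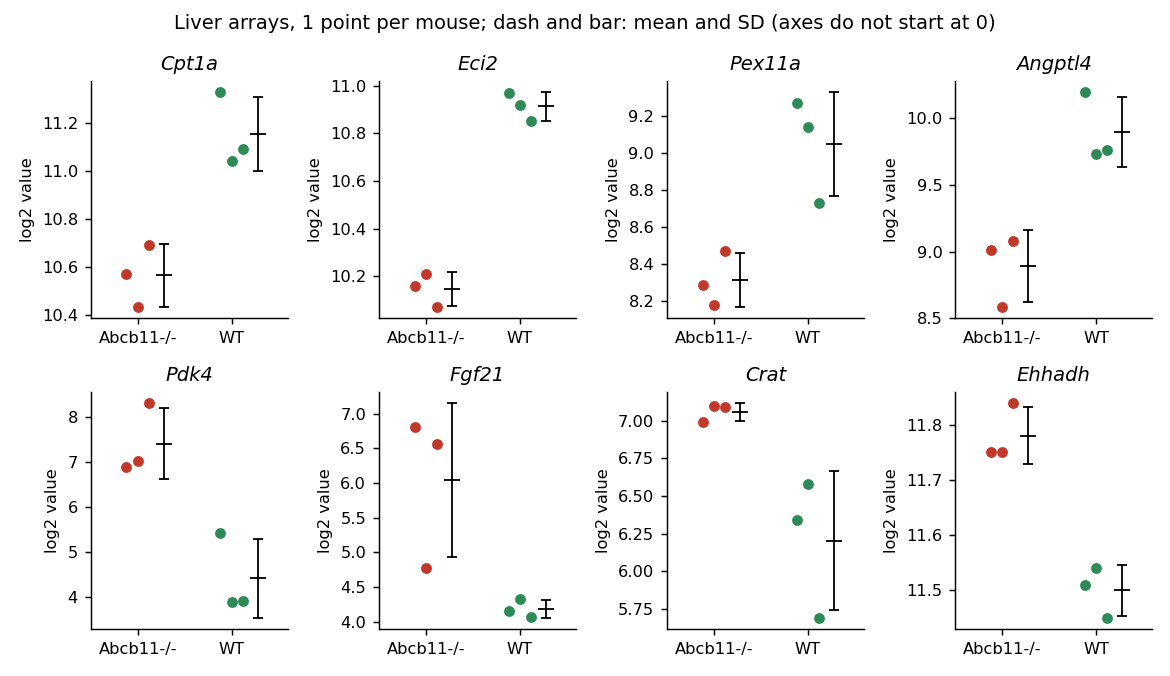
Log2 values of 8 members in the 6 livers, 1 point per mouse, Abcb11-/- on the left and WT on the right of each panel, with the mean and SD as a dash and bar (n = 3 each). The groups do not overlap in any panel, Cpt1a, Eci2, Pex11a and Angptl4 lying lower and Pdk4, Fgf21, Crat and Ehhadh higher in Abcb11-/- livers, with the Fgf21 value of 1 Abcb11-/- liver close to WT.

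Over the whole set, the genotypes did not overlap for 18 of the 27 members, 13 lower and 5 higher in Abcb11-/- livers, against 26% of all genes in either direction. Of the 22 members that were not called, 18 had a 95% interval that stayed within 1.5-fold of WT, so that larger changes of those genes lay outside these intervals. For the other 4 the interval reached further. Neutrophil markers moved with the genotype in these livers. Of 9, 4 were called higher, none lower, and their summed log2 level was between 7.63 and 9.14 in Abcb11-/- livers and between 6.48 and 6.95 in WT livers. Of 7 cholangiocyte markers 2 were called higher, with sums of 6.45 to 6.71 in Abcb11-/- livers and 6.07 to 6.27 in WT livers. The part of these cells in the members' differences was not tested. The summed hepatocyte markers were at 16.68 to 16.77 in Abcb11-/- livers and 16.75 to 16.81 in WT livers.

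Beyond the members, 111 of 126 genes of 5 wider lists were measured, and 13 were called higher and 12 lower. These counts, and those of each list below, stand against 4.33% of all genes called higher and 2.91% lower, and against 9.43% and 8.67% of the brighter genes, and a single call among 21 or more genes is near the shares of all genes. Fatty acid uptake and storage genes made up 4 of the rises. Lpl, the lipase that frees fatty acids from lipoproteins and that Angptl4 inhibits, was at 12.22, 11.16 and 12.22 in Abcb11-/- livers, against 10.06, 9.34 and 9.79 in WT livers (log2 fold change 2.14). The fatty acid carrier Cd36 (1.64), the droplet protein Plin5 (1.43), which ties lipid droplets to mitochondria, and the binding protein Fabp4 (0.85) were also called higher. Mgll (-0.99) and Lipe (-0.87), lipases of the later steps in the breakdown of stored fat, were called lower, and 22 genes of this list were measured.

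Among 9 measured genes of ketone body metabolism 3 were called higher and 1 lower. Oxct1, which lets tissues other than liver use ketone bodies, was at 5.81, 5.94 and 6.05 in Abcb11-/- livers, against 5.35, 4.80 and 4.93 in WT livers (0.91). Bdh2 (1.06) and the ketone body exporter Slc16a6 (0.81) were the other rises. Sirt3, a mitochondrial deacetylase that activates oxidation enzymes, fell (-0.53). Acat1, the acetoacetyl-CoA thiolase, was at -0.42 with no overlap between the genotypes and was not called (adjusted p = 0.0916 from limma).

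Of 31 measured PPAR pathway genes, 1 was called higher and 4 lower. Ppara itself was at 9.27, 9.36 and 9.35 in Abcb11-/- livers, against 10.86, 10.74 and 10.72 in WT livers (-1.45). Its partner Rxra (-0.65), the phosphatidate phosphatase and coactivator Lpin1 (-1.61) and the pantetheinase Vnn1 (-1.32) fell with it. The rise was Cyp4a12a (3.26), a fatty acid hydroxylase known in mice to be made mainly by males, at 7.66, 7.91 and 7.41 in these female Abcb11-/- livers, against 3.58, 5.14 and 4.48 in WT livers. Its close paralogs may add to that signal. Cyp4a10, a known target of PPAR alpha, was at -0.20 and not called (adjusted p = 0.268 from limma).

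The other oxidation genes also split. Of 21 other genes listed as mitochondrial 4 were called higher and 1 lower, and of 28 others listed as peroxisomal 1 was higher and 4 were lower. Acad12 (1.53), a little-studied member of the dehydrogenase family, the thioesterases Acot9 (1.52) and Acot13 (0.80) and Echdc3 (0.55) were higher. The carnitine importer Slc22a5 was lower (-0.46). In the peroxisomal list the thioesterases Acot3 (-1.11), Acot8 (-0.46) and Acot12 (-0.46), the last of which is known mainly as a cytosolic acetyl-CoA hydrolase, and the transporter Abcd4 (-0.59) were lower. Nudt19, a peroxisomal hydrolase of coenzyme A, was higher (0.51).

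In the lungs, values with an Abcb11-/- mother were set against those with a WT mother at each stage, without a test since each group is 1 array. At PN0, 3 of the 27 members were lower by 1.5-fold or more in pups of an Abcb11-/- mother, against 2.88% of all genes, and 0 were higher, against 4.16% of all genes. They were Angptl4, Cpt1a and Slc25a20. Angptl4 was at 6.54 with an Abcb11-/- mother and 8.43 with a WT mother, a log2 difference of -1.89. Cpt1a was at 8.15 with an Abcb11-/- mother and 9.22 with a WT mother (-1.07). Slc25a20, which works directly after Cpt1a in the shuttle, was at 8.02 with an Abcb11-/- mother and 8.84 with a WT mother (-0.82). A second probe set of Slc25a20 gave 6.17 with an Abcb11-/- mother and 7.05 with a WT mother.

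The members outside these 3 were between -0.46 and 0.28 at PN0. Eci2 (-0.46), Acaa2 (-0.43) and Hsd17b4 (-0.40) were on the lower side, and Eci1 (0.28) and Pex11a (0.25) on the higher. Cpt2, which follows Slc25a20 in the shuttle, was at 7.51 with an Abcb11-/- mother and 7.50 with a WT mother. The median difference over the members was -0.14 at PN0, against 0.01 over all genes, with 17 of 27 below 0.

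At E18.5, shortly before birth, none of the 27 members was at least 1.5-fold apart in either direction, against 2.13% of all genes higher and 1.26% lower. Cpt1a was at 7.95 with an Abcb11-/- mother and 8.05 with a WT mother, Slc25a20 at 7.98 with an Abcb11-/- mother and 7.84 with a WT mother, and Angptl4 at 6.14 with an Abcb11-/- mother and 5.95 with a WT mother. The members ranged from -0.39 (Pdk4) to 0.24 (Acads).

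Across birth, Pdk4 climbed with either mother, whereas Angptl4, Cpt1a and Slc25a20 climbed further with a WT mother. Comparing PN0 with E18.5, the Abcb11-/- mother gave 1 member higher by 1.5-fold or more and 0 lower, against 2.72% and 3.64% of all genes. The WT mother gave 4 higher and 0 lower, against 5.03% and 6.46% of all genes. Angptl4 was 0.40 higher at PN0 with an Abcb11-/- mother and 2.48 higher with a WT mother. For Cpt1a the step was 0.20 with an Abcb11-/- mother and 1.17 with a WT mother, and for Slc25a20 it was 0.04 with an Abcb11-/- mother and 1.00 with a WT mother. Pdk4 was the exception, with a step of 1.64 with an Abcb11-/- mother and 1.42 with a WT mother. It reached 8.27 with an Abcb11-/- mother and 8.45 with a WT mother. These steps share their PN0 arrays with the differences by mother and are the same values seen from the other side, and 1 array per point gives no replicate check.

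**Figure D3:**
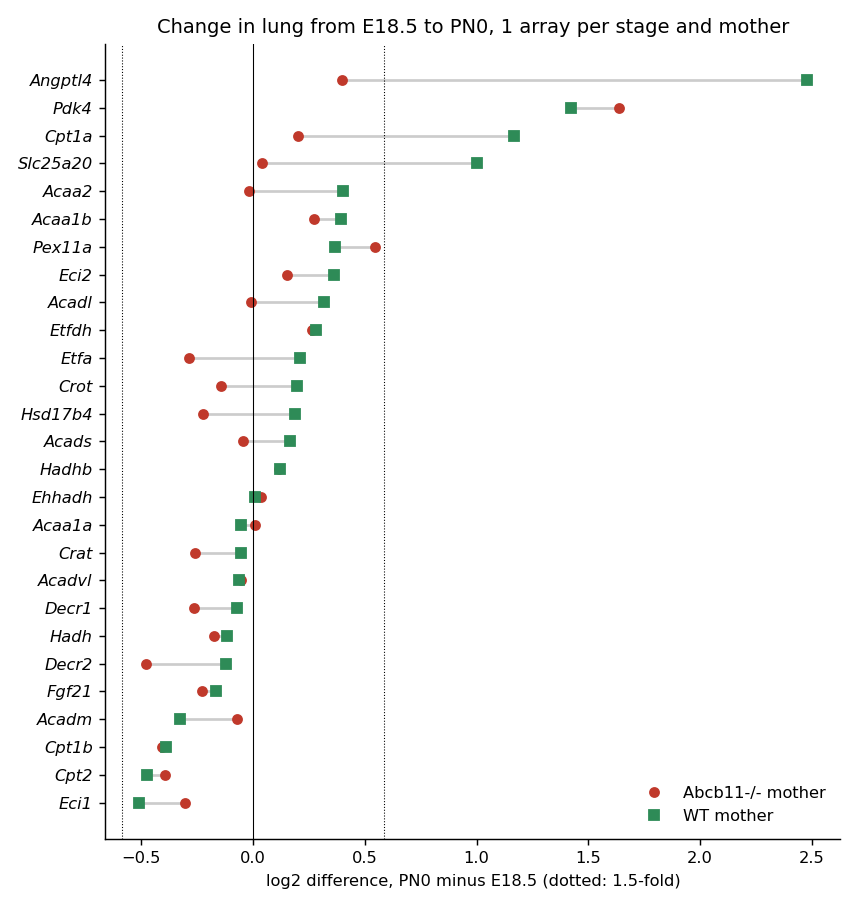
Log2 difference between PN0 and E18.5 in the lung (x axis) of each member, with an Abcb11-/- mother as a circle and with a WT mother as a square, 1 array per stage and mother and dotted lines at 1.5-fold. Pdk4 lies beyond 1.5-fold with either mother, whereas Angptl4, Cpt1a and Slc25a20 do so with a WT mother only (2.48, 1.17 and 1.00), and the remaining members lie between the dotted lines.

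At PN0, 4 of 111 wider-list genes were lower by 1.5-fold or more with an Abcb11-/- mother, near the 2.88% of all genes. Another 9 were higher, a larger share than the 4.16% of all genes. The genes given here were named after their values were seen. The thioesterase Acot2, which cleaves acyl-CoA in mitochondria, was at 8.19 with an Abcb11-/- mother and 9.52 with a WT mother (-1.33). Its cytosolic paralog Acot1 was at 8.50 with an Abcb11-/- mother and 9.65 with a WT mother (-1.14), and probe sets of this near-identical pair may read both genes. Lipe was at 4.91 with an Abcb11-/- mother and 5.73 with a WT mother, and the fatty acid transporter Slc27a4 at 6.35 with an Abcb11-/- mother and 6.95 with a WT mother. At E18.5 Acot2 and Acot1 were within 0.07 of each other by mother. Ppargc1b, a coactivator of oxidative metabolism, was the widest of those higher, at 4.76 with an Abcb11-/- mother and 3.82 with a WT mother (0.93). After it came Echdc3 (0.79), the monocarboxylate carrier Slc16a7 (0.69), the fatty acid transporter Slc27a2 (0.68) and the dehydrogenase Acadsb (0.65). Of these, Slc27a2 was at 3.90 with an Abcb11-/- mother and 3.23 with a WT mother. Both values were near the lung array medians of 3.63 to 3.68, so little can be read from them.

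Other cell types also moved at PN0. The summed neutrophil markers were at 11.37 with an Abcb11-/- mother and 12.07 with a WT mother, with 5 of 9 at least 1.5-fold lower. Heart muscle markers were at 11.34 with an Abcb11-/- mother and 10.75 with a WT mother, with 7 of 13 higher, and hepatocyte markers at 8.40 with an Abcb11-/- mother and 7.72 with a WT mother, with 4 of 14 higher. Brown fat markers were at 6.69 with an Abcb11-/- mother and 6.32 with a WT mother, with 3 of 8 higher, while their defining gene Ucp1 was at 3.16 with an Abcb11-/- mother and 3.00 with a WT mother, below the lung array medians of 3.63 to 3.68. Of 13 skeletal muscle markers 4 were lower and 1 higher (sums of 7.86 with an Abcb11-/- mother and 8.05 with a WT mother), and of 10 fibroblast markers 2 were higher (13.58 with an Abcb11-/- mother and 13.25 with a WT mother). The part of these cells in the PN0 differences was not tested.

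At E17.5, the Abcb11-/- mother gave 1 member higher by 1.5-fold or more and 2 lower, against 3.47% and 3.55% of all genes. Ehhadh was at 4.77 with an Abcb11-/- mother and 4.15 with a WT mother (0.62), dim values on the array that carried the raised hepatocyte markers, of which 11 of 14 were at least 1.5-fold higher. Pdk4 was at 6.14 with an Abcb11-/- mother and 7.18 with a WT mother (-1.04). Angptl4 was at 6.78 with an Abcb11-/- mother and 7.41 with a WT mother (-0.63). With probe sets averaged, Angptl4 was at -0.32 and only the other two remained. On that array 12 of 13 skeletal muscle markers, 6 of 9 neutrophil markers, 4 of 8 erythroid and 4 of 8 type II pneumocyte markers were higher as well, and 8 of 13 heart muscle markers were lower. The part of these cell types in the 3 differences was not tested.

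**Figure D4:**
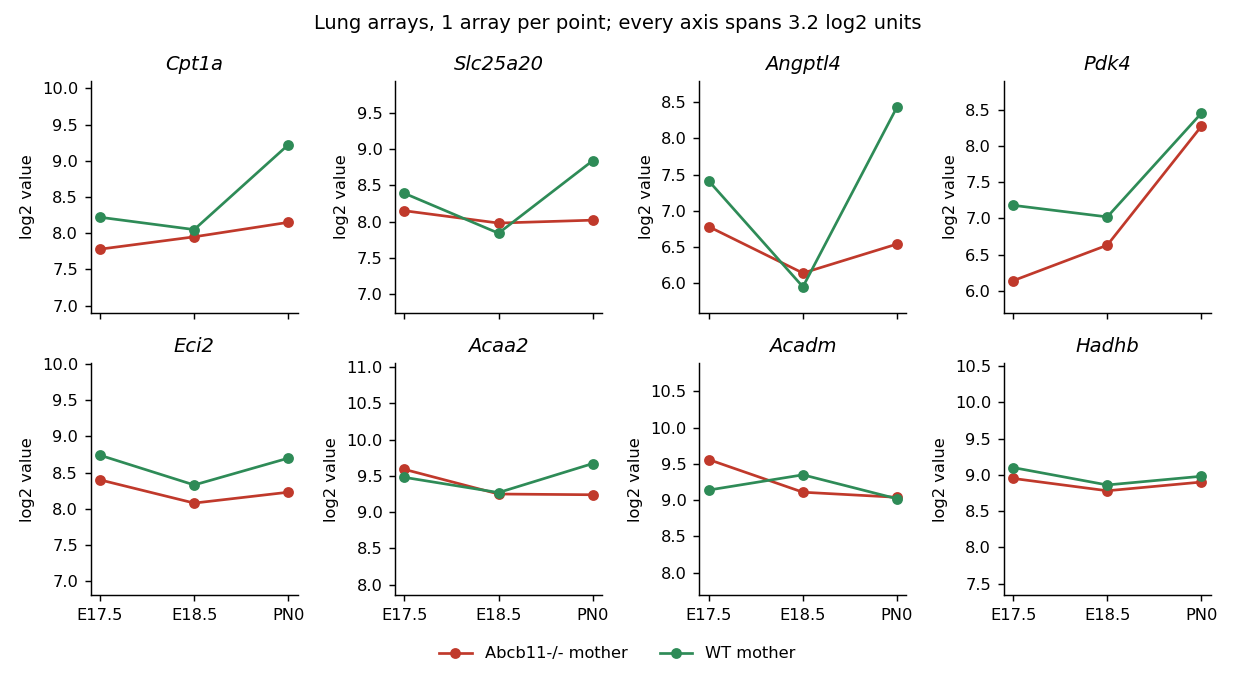
Log2 values of 8 members by stage in the lung (x axis, E17.5 to PN0), Abcb11-/- mother in red and WT mother in green, 1 array per point, with every y axis spanning the same range. The curves of Cpt1a, Slc25a20 and Angptl4 part at PN0, those of Pdk4 climb with either mother, and Acadm and Hadhb stay within 0.42 of each other by mother at every stage.

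Over the 3 stages together, limma found no difference by mother that passed the threshold for any gene (0% of all genes at adjusted p under 0.05, 867 genes or 5.07% at an unadjusted p under 0.05). Of the members, 4 were under 0.05 unadjusted. They were Cpt1a (-0.54), Pdk4 (-0.54), Eci2 (-0.35) and Ehhadh (0.34), each at an adjusted p of 0.926 from limma. Eci2 was lower with an Abcb11-/- mother at each stage, at 8.40, 8.08 and 8.23 from E17.5 to PN0, against 8.74, 8.33 and 8.70 with a WT mother. This fit has 2 residual degrees of freedom. Its estimate is the mean of the 3 stage differences, so a single stage can carry it. From E17.5 to PN0 these were -0.45, -0.10 and -1.07 for Cpt1a, -1.04, -0.39 and -0.18 for Pdk4, and 0.62, 0.19 and 0.21 for Ehhadh. In Pdk4 and Ehhadh the widest was at E17.5, where the Abcb11-/- mother's array held the raised hepatocyte and skeletal muscle markers.

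Between stages, with both mothers in the fit, no gene passed for PN0 against E18.5 (0% of all genes at adjusted p under 0.05, 2098 genes or 12.3% at an unadjusted p under 0.05). For E18.5 against E17.5 it was 10 genes (0.0585%), none of them a member. Pdk4 was the member with the smallest p across birth, at 8.27 (Abcb11-/- mother) and 8.45 (WT mother) at PN0, against 6.63 (Abcb11-/- mother) and 7.02 (WT mother) at E18.5. Its log2 difference was 1.53 ± 0.23 (SE, adjusted p = 0.145 from limma). Without the E17.5 arrays it was called, at an adjusted p of 0.0344. Angptl4 (1.44), Cpt1a (0.69) and Pex11a (0.46) were higher and Cpt2 (-0.43) and Eci1 (-0.41) lower at PN0 at an unadjusted p under 0.05.

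Fgf21 was not well above the array medians at any stage in lung, between 2.82 and 3.25, and Cpt1b and Crot lay in the same range, between 2.90 and 3.51. Acaa1b and Ehhadh were likewise low, at 3.29 to 4.25 and 3.97 to 4.77. Levels were not compared between lung and liver, whose arrays were normalized apart, but the differences can be set side by side. Cpt1a and Angptl4 were lower in Abcb11-/- livers (-0.59 and -1.01) and lower in newborn lung with an Abcb11-/- mother (-1.07 and -1.89). Pdk4 was higher in Abcb11-/- livers (3.00) and at -0.18 in newborn lung by mother. Eci2, lower in Abcb11-/- livers (-0.77), was at -0.46 in newborn lung, and Pex11a, also lower in Abcb11-/- livers (-0.73), was at 0.25 there, with 0.38 from its second probe set. The liver compares genotypes of the animal itself and the lung compares mothers of Abcb11+/- pups.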

How the data were processed

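RNA of 6 livers and 6 lung samples had been hybridized to Affymetrix mouse HT MG430 PM plate arrays. The authors deposited log2 signals, made by robust multiarray averaging (RMA); the submitters' processing notes name Partek 6.5. RMA pulls arrays to 1 distribution, so changes are relative to the bulk of genes, and no detection p-values or counts were used. Of 45037 probe sets, 28898 named 1 gene, 551 several and 15588 none in the platform annotation, and 28689 matched RefSeq by gene number. The members, the lists and the rule for named genes were chosen with earlier results of these data known. The rule took members called in liver or 1.5-fold apart by mother, up to 6 called genes per wider list, Abcb11 and Ppara. Outside it, Acat1 and Cyp4a10, not called in the liver, and the wider-list genes of newborn lung were named as well. Liver genotype was tested with limma 3.58.1 in R 4.3.3 (lmFit, eBayes, Benjamini-Hochberg over 17097 genes, no replicate block), and lung with stage and mother as terms. The methods' own test is an unadjusted t-test, tried as an alternative, besides other probe set summaries, scalings, priors, brightness minimums and leaving out arrays. A fit without the Abcb11-/- mother's array at E17.5 was added after seeing the data. The scripts were tested on simulated data. P-values of the liver fit measure the spread between these mice, and the number of arrays limits the precision. Those of the lung fits, with 1 array per stage and mother, rest on how differences by mother varied between stages, not on spread between animals.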

Additional observations from a re-analysis of the deposited data

How the results depend on the processing

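Of the 5 liver calls among the members, all kept their direction in every limma alternative run, and Eci2 kept its call too. Direction could not change in most of these fits. The genotypes did not overlap for any of the 5, so leaving out 1 array could not reverse them. The replicate block, the other prior and the brightness minimum leave the estimates as they were. Members called were 5 of 27 as reported, 2 to 6 with 1 array left out, and 1 after adjustment or 16 before it with the methods' t-test. Over all genes 1238 were called, 492 to 1509 with 1 array left out, and 49 after adjustment or 3129 before it with the methods' t-test. Same-numbered livers did not deviate together (correlations of -0.045, -0.041 and -0.135), so the numbers were not taken as pairs. With the replicate number as a block, 671 genes (429 higher, 242 lower) and 3 members were called, and Cpt1a and Pex11a lost their calls (adjusted p = 0.0582 and 0.0924). Averaging all probe sets, which brings in a dim one, moved Angptl4 to -0.52. A trended and robust prior put Pdk4 at an adjusted p of 0.0515.

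Values near 0 changed sign in 4 members that were not called. With 1 array left out, Cpt2 was between -0.17 and 0.03, Acadm between -0.01 and 0.05 and Acaa1a between -0.03 and 0.09. With averaged probe sets, Decr1 was -0.04 and Acaa1a -0.06.

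In the lung, the mother over 3 stages gave 1 gene with a mean of at least 6 and 1 with a trended and robust prior, against 0. PN0 against E18.5 gave 14 genes with averaged probe sets, 18 with a mean of at least 6, 87 with the trended and robust prior and 35 without E17.5, against 0. In the last 2 of these fits 1 member, Pdk4, was called. For this contrast, leaving out the Abcb11-/- mother's array at E17.5 alone gave the same fit as leaving out both, so it is not a separate result. E18.5 against E17.5 gave 45 genes with a mean of at least 6, 0 with quantile normalization, 197 with the trended and robust prior and 307 without that array, against 10. It could not be fitted without E17.5. At E17.5, 1 member rather than 3 was 2-fold apart by mother. The 3 members lower at PN0 stayed 1.5-fold lower under every other scaling and probe set rule run, though averaged probe sets moved Angptl4 there to -1.26 from -1.89, and at E17.5 to -0.32 from -0.63, which left 2 members there. The causes of these changes were not tested.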

Other observations

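Probe sets of 1 gene did not always give the same size of difference in the liver. For Acaa2, the mitochondrial thiolase, the brightest probe set differed by -0.19 between Abcb11-/- and WT livers, and the other two by -0.34 and -0.53. For Decr1 the brightest gave 0.11 and a dimmer one -0.18. The second probe sets of Crat (2.99 in Abcb11-/- and 3.07 in WT livers) and Angptl4 (2.55 in Abcb11-/- and 2.59 in WT livers) were below the array medians. In newborn lung all 3 probe sets of Acaa2 were lower with an Abcb11-/- mother (-0.43, -0.39 and -0.21).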
